A study of Mus musculus with 12 samples.

Results

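The genes described here serve autophagy, the process by which a cell wraps part of its own content in a membrane and delivers it to lysosomes, and the clearance of aggregated protein that depends on it. They were set as a list of 33 genes, from the kinases that start autophagosome formation to lysosomal membrane proteins. Each gene was read through the probe set that the array annotation pairs with that gene's symbol alone, taking the probe set with the highest mean where there was a choice. This gave values for 32 of the 33 genes, out of 19937 genes measured in the same way, and all 32 passed the filter on low values (17904 genes passed in all). The ubiquitin receptor Optn was not analysed here.

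RNA came from livers of male C57Bl/6 mice, with 1 Affymetrix whole-transcript array per animal and 12 animals in all. The groups were Hdac6 knockout mice (genotype HDAC6 Y/-, a deletion of the X-linked gene in males) given dexamethasone, knockout mice given vehicle, wild-type mice given dexamethasone and wild-type mice given vehicle, with 3 animals each. Dexamethasone, a synthetic glucocorticoid, was injected intraperitoneally at 1 mg/kg over 3 weeks. The mice were fed freely, and the submitters state that the 3 samples of a group came from different animals. The labels give no age, no time between the last injection and tissue collection, and no cell type to which the deletion was limited.

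Hdac6 is a cytoplasmic deacetylase that binds ubiquitin and the dynein motor, and it is known for carrying ubiquitinated protein along microtubules to aggresomes, from which autophagy removes it. Autophagosomes form when the Ulk kinases and the Becn1 lipid kinase complex mark a membrane, and a ubiquitin-like conjugation system then attaches Atg8 proteins (the Map1lc3 and Gabarap genes) to it. Cargo receptors such as Sqstm1 bind ubiquitin on one side and Atg8 proteins on the other. In liver, autophagy supplies amino acids and lipid during fasting, and glucocorticoids are among the hormones that rise then.

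Hdac6 itself separated the genotypes. Its log2 intensity was 3.62, 3.89 and 3.75 in knockout dexamethasone livers, against 5.86, 6.18 and 5.92 in wild-type dexamethasone livers. Under vehicle it was 4.40, 4.07 and 3.90 in knockout livers, against 6.09, 6.08 and 6.43 in wild-type livers. Averaged over both treatments the knockout was lower by 2.15 on the log2 scale (-2.15 ± 0.10, SE, 4.45-fold, adjusted p = 3.02e-07 in limma). Transcripts of the exocrine pancreas were present in 4 arrays (knockout vehicle 3, wild-type dexamethasone 3, wild-type vehicle 1 and 2), where the mean log2 intensity of 10 pancreas markers was 8.06 to 10.15, against 3.18 to 3.65 in the other 8. Results are therefore also given without these 4 arrays, a fit in which wild-type vehicle keeps 1 animal and borrows its variance from the other 3 groups. Kupffer cell markers were lower with dexamethasone in wild type for 7 of 10 genes and higher for 1, where 11.5% of all genes passed (mean log2 intensity 5.87 to 6.32 with dexamethasone, against 6.66 to 7.47 with vehicle). In the knockout 0 of the 10 were lower and 1 was higher, where 8.29% of all genes passed (6.56 to 7.40 with dexamethasone, against 6.55 to 6.94 with vehicle). The difference between these responses passed for 0 of the 10 in limma, with 6 at an unadjusted p under 0.05. The mean log2 intensity of 7 hepatocyte markers lay between 12.65 and 12.75 in every array.

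Dexamethasone moved single genes of the autophagy list in both directions, with the median of the list near 0. In knockout livers the mitophagy receptor Bnip3, the Atg8 gene Map1lc3b, the lipid-binding Wipi1 and the mitophagy receptor Bnip3l rose, while the cargo receptor Sqstm1 and the Atg8 gene Gabarapl1 fell. In wild-type livers these 6 genes passed the threshold in the same directions, and Atg5 and Atg7 of the conjugation system also fell. The averaged effect of both genotypes added Atg16l1 as higher and Nbr1 as lower.

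These calls rest on an adjusted p under 0.05 in a limma fit to all 12 arrays, with Benjamini-Hochberg adjustment over the 17904 genes. In the knockout 6 of 32 genes passed (18.8%), 4 higher and 2 lower, or 4 and 1 with each array centred on its median. Of all genes 8.29% passed in that comparison, 4.38% higher and 3.92% lower. In wild type 8 of 32 passed (25%), 4 higher and 4 lower, where 11.5% of all genes did, 4.57% higher and 6.95% lower. For the averaged effect the count was 10 of 32 (31.2%), 5 higher and 5 lower, where 17.2% of all genes passed, 7.29% higher and 9.94% lower. All 32 genes lay above the median of every array, and among the 11749 genes above the 50th percentile in at least 3 arrays the shares were 13.2% in the knockout, 18.2% in wild type and 26.4% for the average. The list's shares were thus nearer to those of this filtered set than to those of all genes. The median log2 change over the 32 genes was 0.02 in the knockout, 0.04 in wild type and 0.01 for the average, and over all genes it was -0.01, 0.01 and 0.00.

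Leaving out single arrays changed the knockout count most. It was 3 without knockout dexamethasone 2 or knockout vehicle 1, and 2 without knockout dexamethasone 3, knockout vehicle 2 or knockout vehicle 3; Map1lc3b and Bnip3 passed in each of these fits. The wild-type count stayed between 6 and 8 and the averaged count between 7 and 10 when any 1 array was left out. Without the 4 arrays with pancreas transcripts fewer genes passed in each of these comparisons, in the list and over all genes. That fit keeps 1 wild-type vehicle animal, so its counts are not read as a result about the list. Map1lc3b and Bnip3 still passed in the knockout and Atg5 in wild type. For the average Bnip3, Wipi1, Map1lc3b, Gabarapl1 and Atg5 did. None of the calls changed sign in any fit that was run.

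**Figure D1:**
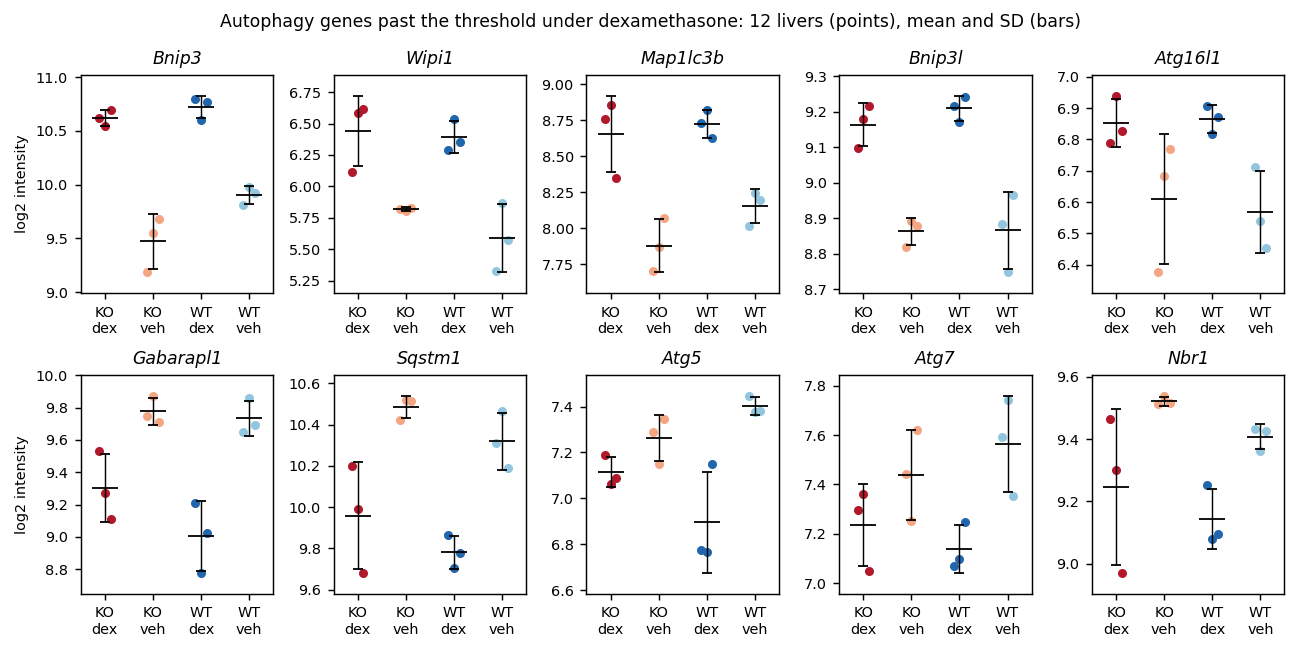
Log2 intensity (y axis) of the 10 genes past the threshold in at least 1 dexamethasone comparison, in the 12 livers; points are animals, horizontal bars group means and error bars SD, in the order knockout dexamethasone, knockout vehicle, wild-type dexamethasone and wild-type vehicle. The upper row holds the 5 genes that were higher with dexamethasone and the lower row the 5 that were lower; the scales differ between panels. Bnip3 lies at 10.54 to 10.80 in dexamethasone livers and at 9.19 to 9.98 in vehicle livers.

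The promoters of the 5 genes with the largest averaged changes are shown because these genes moved in opposite directions under 1 drug. Each window is the 250 bases before the annotated start in RefSeq (GRCm38.p6), given 5′ to 3′ on the strand of the gene, in lower case; capitals mark an E-box, CACGTG, the core of the element that Tfeb binds. The windows are chr7:138909507-138909756 (minus strand) for Bnip3, chr8:121590188-121590437 (plus) for Map1lc3b, chr11:109611390-109611639 (minus) for Wipi1, chr6:129532942-129533191 (plus) for Gabarapl1 and chr11:50210821-50211070 (minus) for Sqstm1. The first 3 belong to genes that rose and the last 2 to genes that fell.
Bnip3: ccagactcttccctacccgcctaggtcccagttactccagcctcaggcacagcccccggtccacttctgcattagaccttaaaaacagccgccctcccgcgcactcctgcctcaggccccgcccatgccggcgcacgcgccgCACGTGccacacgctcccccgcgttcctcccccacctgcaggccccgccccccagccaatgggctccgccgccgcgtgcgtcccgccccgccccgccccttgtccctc
Map1lc3b: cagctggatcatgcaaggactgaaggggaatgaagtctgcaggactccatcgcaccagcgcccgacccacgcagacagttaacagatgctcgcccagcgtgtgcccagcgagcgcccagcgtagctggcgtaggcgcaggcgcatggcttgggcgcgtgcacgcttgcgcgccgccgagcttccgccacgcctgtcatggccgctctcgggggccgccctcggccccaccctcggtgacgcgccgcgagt
Wipi1: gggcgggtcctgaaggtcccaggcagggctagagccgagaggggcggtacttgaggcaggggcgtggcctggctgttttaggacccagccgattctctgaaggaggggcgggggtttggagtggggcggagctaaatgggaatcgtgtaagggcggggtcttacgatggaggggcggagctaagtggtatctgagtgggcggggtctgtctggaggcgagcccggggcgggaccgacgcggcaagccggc
Gabarapl1: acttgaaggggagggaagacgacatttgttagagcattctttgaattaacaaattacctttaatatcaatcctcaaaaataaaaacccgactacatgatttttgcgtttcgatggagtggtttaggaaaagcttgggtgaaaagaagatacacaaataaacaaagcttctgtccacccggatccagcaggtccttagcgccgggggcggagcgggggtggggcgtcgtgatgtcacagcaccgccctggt
Sqstm1: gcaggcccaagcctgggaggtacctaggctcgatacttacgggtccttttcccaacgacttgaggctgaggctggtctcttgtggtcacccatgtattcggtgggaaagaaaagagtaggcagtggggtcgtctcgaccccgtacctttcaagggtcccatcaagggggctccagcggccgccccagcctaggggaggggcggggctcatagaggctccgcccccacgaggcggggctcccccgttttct
Bnip3 is the gene of these 5 with an E-box, which begins 108 bases before its start; 6.02% of 32851 RefSeq promoter windows of this length hold one on either strand (the motif reads the same on both). Of the 33 genes, 27 matched the RefSeq table, and Atg3, Atg5, Atg7 and Lamp1 held an E-box as well. The FOXO motif, searched in the single form GTAAACA (3.17% of all windows), was in 0 of the 27 genes' windows on either strand. The full glucocorticoid response element, AGAACA and TGTTCT with 3 bases between, was in 0 of them as well. It was in 3 of all windows, so its absence here says nothing about receptor binding near these genes. Other forms of these 2 motifs were not searched. The core of the antioxidant response element, TGACNNNGC, was found for Atg13, Ulk2 and Vcp and in 10.2% of all windows, on either strand. In the printed windows the E-box of Bnip3 is the single match, so no matches overlap there. The Gabarapl1 window had 46.8% G and C and the other 4 windows 63.2% to 72.4%, against a median of 52.4%.

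Among the cargo receptors, both mitochondrial ones rose and both ubiquitin-binding ones were lower. Bnip3, an outer mitochondrial membrane protein that recruits autophagosomes, had log2 intensities of 10.62, 10.54 and 10.69 in knockout dexamethasone livers, against 9.19, 9.55 and 9.68 in knockout vehicle livers. In wild type it was at 10.80, 10.60 and 10.77 with dexamethasone, against 9.81, 9.98 and 9.92 with vehicle. All 6 dexamethasone livers were above all 6 vehicle livers. The log2 change was 1.15 ± 0.12 (SE) in the knockout (2.21-fold, limma adjusted p = 4.24e-05) and 0.82 ± 0.12 in wild type (1.77-fold, adjusted p = 6.19e-04). A second probe set annotated to Bnip3 gave 1.14 and 0.95; both carry the same accessions, so how far a near-identical copy enters either value is uncertain. Without the 4 arrays with pancreas transcripts the wild-type change was 0.78 and missed the threshold (adjusted p = 0.0517).

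Bnip3l, the closest relative of Bnip3 and the receptor that clears mitochondria from maturing red cells, moved less. It was at 9.10, 9.18 and 9.22 in knockout dexamethasone livers, against 8.82, 8.89 and 8.88 in knockout vehicle livers. Wild-type livers gave 9.22, 9.17 and 9.24 with dexamethasone, against 8.88, 8.75 and 8.97 with vehicle. The dexamethasone livers again stood above all vehicle livers, with a change of 0.30 ± 0.08 in the knockout (adjusted p = 0.0419) and 0.34 ± 0.08 in wild type (adjusted p = 0.0164). The knockout call was lost without any 1 of 10 arrays (all but wild-type vehicle 2 and 3), at 0.27 to 0.33, and the wild-type call without wild-type dexamethasone 1 (0.34) or 3 (0.33) or wild-type vehicle 2 (0.29). Its second probe set gave 0.22 in the knockout and 0.10 in wild type, and the mean of both sets did not pass in either. Without the 4 arrays with pancreas transcripts the averaged change was 0.27 and did not pass (adjusted p = 0.0778).

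Sqstm1 encodes the receptor that clusters ubiquitinated protein and is itself degraded by autophagy. Its log2 intensity was 10.20, 9.99 and 9.68 in knockout dexamethasone livers, against 10.42, 10.52 and 10.52 in knockout vehicle livers. With dexamethasone wild-type livers had 9.86, 9.70 and 9.78, against 10.31, 10.46 and 10.19 with vehicle. The groups did not overlap within either genotype, although knockout dexamethasone 1 (10.20) was slightly above wild-type vehicle 3 (10.19). The gene fell by 0.53 in the knockout (-0.53 ± 0.12, 1.44-fold lower, adjusted p = 0.0158) and by 0.54 in wild type (-0.54 ± 0.12, 1.45-fold lower, adjusted p = 0.0112). The knockout call was lost without knockout dexamethasone 3 (-0.39), knockout vehicle 2 (-0.51) or knockout vehicle 3 (-0.51). Without the 4 arrays with pancreas transcripts the changes were -0.51 in the knockout and -0.40 in wild type, neither past the threshold, and the average was -0.46 (adjusted p = 0.0517). In whole liver, fewer cells of a type and less RNA per cell cannot be told apart. The Kupffer marker level given above moved in the same direction as Sqstm1 in wild type and not in the knockout. Mean stellate marker levels were lower with dexamethasone in the knockout (5.83 to 5.88, against 5.94 to 6.29) and in wild type (5.88 to 5.94, against 6.15 to 6.51). Endothelial levels were lower in wild type (6.72 to 6.87, against 7.01 to 7.29) and overlapped in the knockout (6.89 to 7.08, against 6.92 to 7.03). The part of these levels in the result was not tested.

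Nbr1, a second ubiquitin-binding receptor that works beside Sqstm1, was at 9.46, 9.30 and 8.97 in knockout dexamethasone livers, against 9.51, 9.54 and 9.52 in knockout vehicle livers. Wild-type livers had 9.25, 9.08 and 9.10 with dexamethasone, against 9.43, 9.36 and 9.43 with vehicle. Knockout dexamethasone 1, at 9.46, lay within the range of the 6 vehicle livers, and the other 5 dexamethasone livers lay below it. The averaged change was -0.27 ± 0.08 (limma adjusted p = 0.0313), with -0.28 in the knockout and -0.26 in wild type, neither past the threshold alone (adjusted p = 0.189 and 0.169). The averaged call was lost without any 1 of 8 arrays, at -0.27 to -0.20: knockout dexamethasone 3, knockout vehicle 1, 2 and 3, wild-type dexamethasone 2 and 3 and wild-type vehicle 1 and 3.

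The 5 Atg8 genes, whose proteins are coupled to lipid on the forming autophagosome and bind the receptors, split. Map1lc3b, the best-known marker of autophagosomes, was at 8.76, 8.85 and 8.35 in knockout dexamethasone livers, against 7.70, 7.87 and 8.07 in knockout vehicle livers. Wild-type livers had 8.73, 8.82 and 8.63 with dexamethasone, against 8.02, 8.24 and 8.20 with vehicle. Every dexamethasone liver was above every vehicle liver, and knockout dexamethasone 3 was the lowest of the 6. The gene rose by 0.77 ± 0.13 in the knockout (1.71-fold, adjusted p = 2.37e-03) and by 0.57 ± 0.13 in wild type (1.49-fold, adjusted p = 0.0141). The wild-type call was lost without wild-type dexamethasone 2 (0.53) or wild-type vehicle 1 (0.50). A second, dimmer Map1lc3b probe set varied from 2.02 to 6.81 over the arrays, and with the mean of both sets the change was 1.46 in the knockout, still past the threshold, and 0.44 in wild type, where the call ended.

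Gabarapl1, of the subfamily that acts later in autophagosome closure, went the other way. It had 9.53, 9.27 and 9.11 in knockout dexamethasone livers, against 9.75, 9.87 and 9.71 in knockout vehicle livers. In wild type the values were 9.21, 8.78 and 9.02 with dexamethasone, against 9.65, 9.86 and 9.69 with vehicle. All 6 dexamethasone livers were below all 6 vehicle livers. The decrease was -0.47 ± 0.13 in the knockout (1.39-fold, adjusted p = 0.0360) and -0.73 ± 0.13 in wild type (1.66-fold, adjusted p = 2.30e-03). The knockout call was lost without knockout dexamethasone 2 (-0.46) or 3 (-0.38) or any 1 knockout vehicle array (-0.51 to -0.43), and with each array centred on its median (-0.45). Map1lc3a was higher without passing (0.38 in the knockout and 0.24 in wild type, averaged adjusted p = 0.117), and wild-type vehicle 2, at 6.44, was among its highest arrays. Gabarap changed by -0.04 and -0.03 and Gabarapl2 by 0.03 and 0.15, in the same order, with limma adjusted p-values of 0.400 and above. A second Gabarapl2 probe set, at a low mean of 3.02, gave -0.38 in the knockout and 0.45 in wild type.

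Membrane supply rests on Atg9a, a lipid scramblase carried on vesicles, on Atg2a, which transfers lipid, and on Wipi1 and Wipi2, which read the lipid made by the Becn1 complex. Wipi1 alone of these 4 genes passed. Its values were 6.12, 6.58 and 6.62 in knockout dexamethasone livers, against 5.82, 5.80 and 5.83 in knockout vehicle livers, and 6.29, 6.54 and 6.35 in wild-type dexamethasone livers, against 5.33, 5.87 and 5.57 in wild-type vehicle livers. The lowest dexamethasone value (6.12) was above the highest vehicle value (5.87). Wipi1 rose by 0.62 ± 0.15 in the knockout (1.54-fold, adjusted p = 0.0194) and by 0.81 ± 0.15 in wild type (1.75-fold, adjusted p = 3.37e-03). The knockout call was lost without knockout dexamethasone 2 (0.55) or 3 (0.53) or any 1 knockout vehicle array (0.61 to 0.63). Wipi2, the relative that recruits Atg16l1, changed by 0.19 in the knockout and by -0.11 in wild type, Atg9a by -0.13 and -0.08, and Atg2a by -0.08 and 0.05.

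The conjugation genes encode the enzymes that process and attach Atg8 proteins, and 3 of 9 passed for the averaged effect. Atg5, a subunit of the ligase that couples Atg8 proteins to lipid, had 7.19, 7.06 and 7.09 in knockout dexamethasone livers, against 7.29, 7.15 and 7.35 in knockout vehicle livers. The wild-type values were 6.77, 6.76 and 7.15 with dexamethasone, against 7.45, 7.38 and 7.38 with vehicle. The groups overlapped in the knockout and not in wild type. Atg5 fell by 0.51 in wild type (-0.51 ± 0.11, 1.42-fold lower, adjusted p = 7.83e-03), and this call held in all 20 alternative fits, at -0.63 to -0.43. In the knockout the change was -0.15 ± 0.11 (adjusted p = 0.558), and the difference between genotypes, 0.36 ± 0.15, did not pass (adjusted p = 0.781).

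Atg7, the activating enzyme of both conjugation routes, was at 7.30, 7.36 and 7.05 in knockout dexamethasone livers, against 7.44, 7.25 and 7.62 in knockout vehicle livers. It was at 7.07, 7.10 and 7.25 in wild-type dexamethasone livers, against 7.59, 7.74 and 7.35 in wild-type vehicle livers. The highest vehicle value of each genotype came from an array with pancreas transcripts (7.62 and 7.74). The wild-type change of -0.43 ± 0.13 passed narrowly (adjusted p = 0.0464) and was -0.27 without the 4 arrays with pancreas transcripts (adjusted p = 0.521). In the knockout the change was -0.20 ± 0.13 (adjusted p = 0.469), and the difference between genotypes, 0.22 ± 0.18, did not pass (adjusted p = 0.894). The wild-type call was also lost without any 1 of 8 arrays, at -0.48 to -0.34: each wild-type dexamethasone array, wild-type vehicle 1 and 2, knockout dexamethasone 1 and 2 and knockout vehicle 1. The averaged change was -0.31 ± 0.09 (adjusted p = 0.0273) and -0.19 without the 4 arrays; it too was lost without any 1 of 7 arrays, at -0.31 to -0.27: knockout dexamethasone 3, knockout vehicle 1 and 3, wild-type dexamethasone 1 and 2, and wild-type vehicle 1 and 2.

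Atg16l1, which positions the ligase on the membrane, was at 6.79, 6.94 and 6.83 in knockout dexamethasone livers, against 6.38, 6.68 and 6.77 in knockout vehicle livers. Wild-type livers had 6.91, 6.82 and 6.87 with dexamethasone, against 6.71, 6.54 and 6.45 with vehicle. All 6 dexamethasone livers were above all 6 vehicle livers, knockout vehicle 3 being the closest to them. The change was 0.24 in the knockout and 0.30 in wild type, neither past the threshold alone (adjusted p = 0.254 and 0.110), and the averaged change was 0.27 ± 0.08 (adjusted p = 0.0281). The call was lost without knockout dexamethasone 2, knockout vehicle 1, wild-type dexamethasone 1 or 3, or wild-type vehicle 2 or 3, at 0.21 to 0.27. The averaged effects of the other 6 (the conjugating enzymes Atg3 and Atg10, the ubiquitin-like Atg12 and the proteases Atg4b, Atg4c and Atg4d) lay between -0.03 and 0.15, with adjusted p-values of 0.223 and above.

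The genes of the list that start autophagosome formation did not pass in any of the 7 comparisons. Atg101 and Uvrag, which lie outside the list, are given below. The kinase gene Ulk1 changed by 0.25 in the knockout and 0.10 in wild type, its paralogue Ulk2 by -0.12 and -0.23, and Atg13, the kinase's partner, by 0.08 and 0.14. Becn1, a core subunit of the lipid kinase complex, changed by 0.15 and 0.19, and Atg14, which directs that complex to autophagosomes, by 0.57 ± 0.24 in the knockout (adjusted p = 0.201) and -0.13 in wild type. The knockout value of Atg14 came from arrays at 7.19, 6.35 and 6.07 with dexamethasone, against 5.86, 6.08 and 5.96 with vehicle, so knockout dexamethasone 1 stood far above the rest. Ulk1 was highest in the same array (7.87, against 6.96 to 7.59 in the other 11).

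At the lysosomal end the master regulator Tfeb changed by 0.02 in the knockout and -0.03 in wild type, and stayed between 4.33 and 4.67 in all arrays. That range overlaps the range of Hdac6 in knockout livers (3.62 to 4.40), so a part of the Tfeb signal may be background. The lysosomal membrane glycoprotein genes Lamp1 (-0.03 and -0.18) and Lamp2 (-0.07 and 0.04) did not pass either. Vcp, the segregase that pulls ubiquitinated proteins out of complexes and is a known Hdac6 partner, was at 9.81, 9.81 and 9.80 in knockout dexamethasone livers, against 9.88, 9.82 and 9.86 in knockout vehicle livers. It was at 9.69, 9.68 and 9.69 in wild-type dexamethasone livers, against 9.82, 9.82 and 9.80 in wild-type vehicle livers. The 3 wild-type dexamethasone livers were the lowest of the 12, but the changes were small (-0.05 ± 0.07 in the knockout and -0.12 ± 0.07 in wild type) and did not pass. Fbxo32, a ubiquitin ligase gene that glucocorticoids induce in wasting skeletal muscle, had 3.95, 3.87 and 3.71 in knockout dexamethasone livers, against 4.02, 4.01 and 4.11 in knockout vehicle livers. In wild type it had 4.33, 4.004 and 3.88, against 3.89, 3.86 and 3.80. Neither change passed (-0.20 ± 0.11 and 0.22 ± 0.11, limma adjusted p = 0.391 and 0.267). All of these Fbxo32 values lay within the range of Hdac6 in knockout livers (3.62 to 4.40), so the signal may be background.

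**Figure D2:**
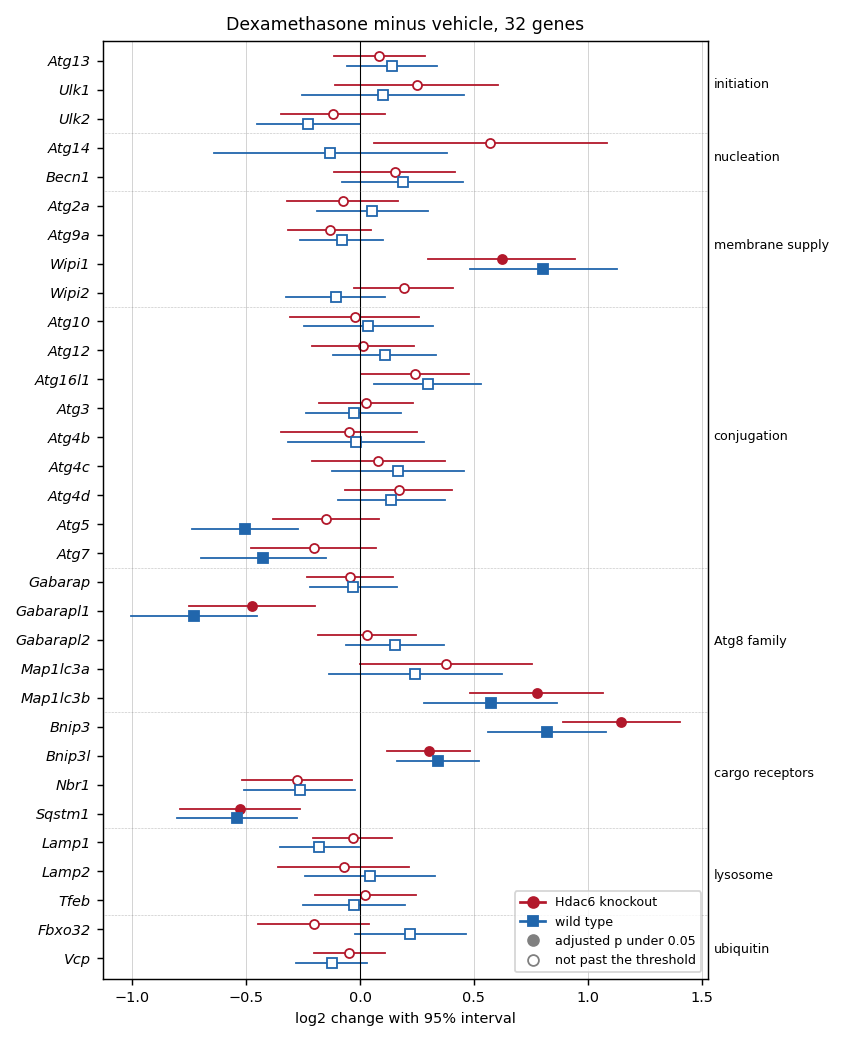
Log2 change with dexamethasone (x axis) for the 32 genes, grouped by role, in knockout (red circles) and wild-type livers (blue squares), with 95% intervals from the limma fit; filled symbols are past the threshold. Filled pairs to the right are Bnip3, Map1lc3b, Wipi1 and Bnip3l, filled pairs to the left Gabarapl1 and Sqstm1, and Atg5 and Atg7 are filled in wild type.

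Groups without overlap were commoner than calls. Dexamethasone and vehicle livers did not overlap for 12 of 32 genes in the knockout (24.3% of all genes did not) and for 14 of 32 in wild type (27% of all genes). All 6 dexamethasone livers lay on one side of all 6 vehicle livers for 6 of 32 genes, where 8.76% of all genes did so: Bnip3, Bnip3l, Map1lc3b, Wipi1, Atg16l1 and Gabarapl1. The other 22 genes, which passed in no comparison, had averaged dexamethasone changes between -0.17 (Ulk2) and 0.31 (Map1lc3a), and 21 of them were within 0.25 of 0.

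Loss of Hdac6 was then compared with wild type within each treatment. In limma 0 of 32 genes passed under vehicle (2 at an unadjusted p under 0.05), 0 under dexamethasone (2 unadjusted) and 0 for the genotype effect averaged over treatments (2 unadjusted). Among all genes 0.101%, 0.0279% and 0.0503% passed in these comparisons, or 18, 5 and 9 genes. These small counts over all genes depended on single arrays, while the count among the 32 genes was 0 in each such fit. Under vehicle the count over all genes was 28 without wild-type vehicle 1, 10 without knockout dexamethasone 2 or knockout vehicle 2, 8 without knockout vehicle 3 and 5 without wild-type vehicle 2. Under dexamethasone it was 37 without knockout dexamethasone 3, 3 without wild-type dexamethasone 1, 1 without knockout dexamethasone 2, and 2 without knockout dexamethasone 1, knockout vehicle 2 or 3, wild-type dexamethasone 3, or wild-type vehicle 2 or 3. Averaged over treatments it was 29 without knockout dexamethasone 3, 21 without wild-type vehicle 1, 15 without wild-type vehicle 3 and 5 without wild-type dexamethasone 3. Knockout and wild-type livers did not overlap for 7 of 32 genes under vehicle (11.8% of all genes) and 3 of 32 under dexamethasone (14% of all genes), and over both treatments for 0 of 32 (0.357% of all genes). The median log2 difference, knockout minus wild type, was 0.03 under vehicle, 0.06 under dexamethasone and 0.03 on average.

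The intervals bound what such a difference could be. For the averaged genotype effect the 95% interval lay within -0.5 and 0.5 on the log2 scale for 31 of 32 genes, and within -1 and 1 for all 32. Sqstm1, the receptor whose cargo Hdac6 also handles, differed by 0.17 ± 0.09 (interval -0.02 to 0.36, adjusted p = 0.539), and Vcp by 0.08 ± 0.05 (-0.03 to 0.19). The genes at an unadjusted p under 0.05 were chosen after their values were seen. Bnip3 under vehicle was lower in knockout livers by 0.43 (-0.43 ± 0.12, interval -0.69 to -0.17, limma adjusted p = 0.429). Its values there were 9.19, 9.55 and 9.68, against 9.81, 9.98 and 9.92 in wild type. The second Bnip3 probe set gave -0.28, with overlapping groups (7.94, 8.30 and 8.59 against 8.51, 8.66 and 8.49). The Atg8 protease gene Atg4d was lower under vehicle as well (-0.24 ± 0.11, adjusted p = 0.689). Under dexamethasone Gabarapl1 (0.30 ± 0.13, adjusted p = 0.538) and Atg14 (0.54 ± 0.24, adjusted p = 0.548) were higher in knockout livers, both with overlapping groups.

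**Figure D3:**
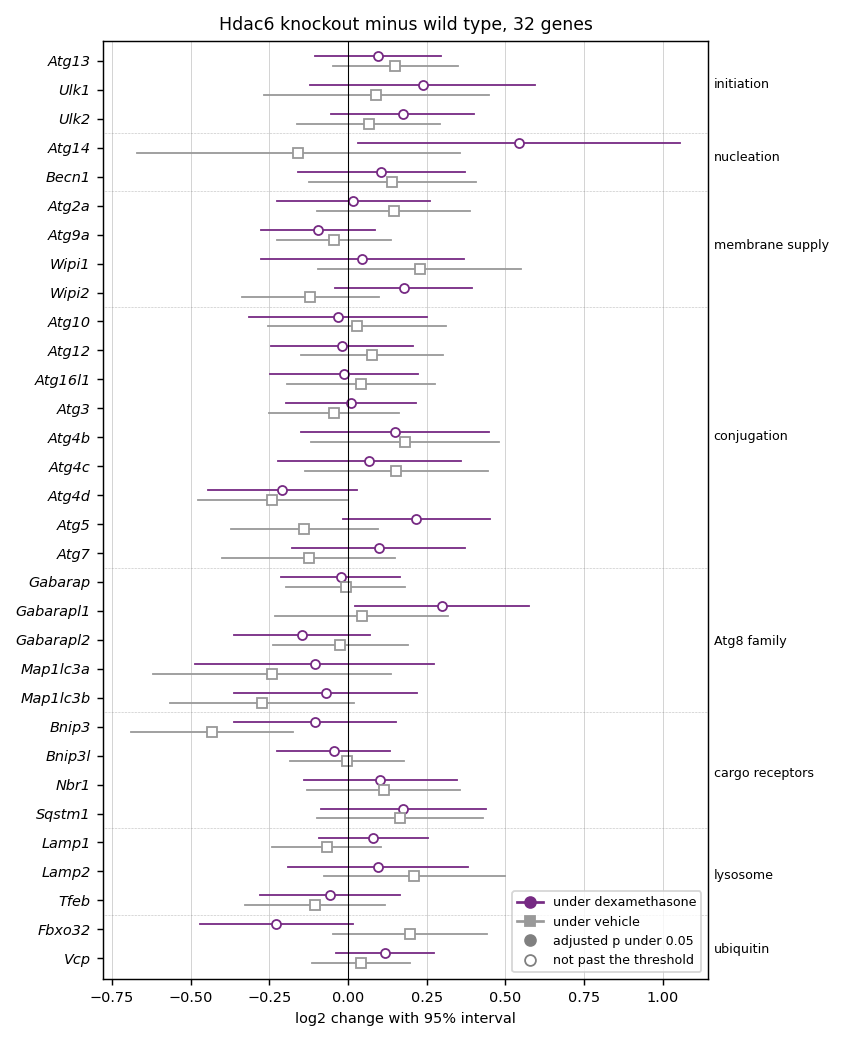
Log2 difference, Hdac6 knockout minus wild type (x axis), for the 32 genes under dexamethasone (purple circles) and under vehicle (grey squares), with 95% intervals from the limma fit. No symbol is filled, since 0 of 32 genes passed the threshold under either treatment; the widest intervals belong to Atg14.

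The dexamethasone responses of the genotypes were set against each other by the interaction, the knockout change minus the wild-type change. It passed for 0 of 32 genes in limma (2 at an unadjusted p under 0.05, Atg5 and Fbxo32) and for 0% of all genes (0 to 3 genes when any 1 array was left out). Fbxo32, at the low level given above, had the smallest p of the list (-0.42 ± 0.16, interval -0.77 to -0.08, adjusted p = 0.754). The interaction was 0.01 ± 0.17 for Sqstm1 (interval -0.36 to 0.38) and 0.33 ± 0.17 for Bnip3 (-0.04 to 0.69). The second Bnip3 probe set gave 0.19. The interval lay within -0.5 and 0.5 for 20 of 32 genes, and for the other 12 it reached beyond that size. The sign of the dexamethasone change was shared by both genotypes for 24 of 32 genes. The share over all genes was not computed, so this count is not read as particular to the list.

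Other genes of the pathway were read from lists set beside the 33. Beside the lists stands the 17.2% of all genes that passed for the averaged dexamethasone effect. Among genes above the 50th percentile in at least 3 arrays 26.4% passed, so part of any excess may go with expression level. Counts without the 4 arrays with pancreas transcripts come from a fit with 1 wild-type vehicle animal, where fewer of all genes passed too. Of 26 further autophagosome genes, 4 rose and 5 fell for the averaged dexamethasone effect (34.6% in all, beside 17.2% of all genes, 7.29% higher and 9.94% lower), in the same numbers without the 4 arrays with pancreas transcripts. Trp53inp1 and Trp53inp2, which bind Atg8 proteins, rose by 2.09 ± 0.15 and 0.92 ± 0.08. Uvrag, a subunit of the Becn1 complex, rose by 0.61 ± 0.08, while Atg101, which stabilises Atg13, fell by 0.90 (-0.90 ± 0.11). Trp53inp1 was at 10.19 to 10.82 in the 6 dexamethasone livers, against 8.02 to 8.92 in the 6 vehicle livers. Their limma adjusted p-values ran from 5.82e-07 to 1.05e-04, and each also passed in both genotypes separately.

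Cargo receptors and mitophagy genes outside the 33 gave 4 higher and 1 lower of 16 (31.2%, against the same 17.2%), or 3 and 1 without the 4 arrays. Retreg1, a receptor for fragments of endoplasmic reticulum, rose by 1.29 ± 0.12 (8.01 to 8.45 with dexamethasone, against 6.61 to 7.31 with vehicle). Ncoa4, which delivers ferritin to autophagosomes, rose by 0.61 ± 0.09 and the endoplasmic reticulum receptor Sec62 by 0.31 ± 0.06. Tax1bp1, a ubiquitin-binding receptor, rose by 0.28 ± 0.06 (adjusted p = 5.12e-03), a call that ended without the 4 arrays at 0.28. Of 30 lysosome genes 0 were higher and 4 lower (13.3%, near the 9.94% of all genes that were lower), or 1 (Atp6v1b2) without the 4 arrays. They were the proton pump subunit Atp6v1b2 (-0.48 ± 0.07), the proteases Lgmn (-0.44 ± 0.12) and Ctsa (-0.23 ± 0.07) and the lipase Lipa (-0.31 ± 0.10). Macrophages also express the last 3. Lgmn changed by -0.12 in the knockout and -0.76 in wild type, Ctsa by -0.08 and -0.38, and Lipa by -0.42 and -0.21; the Kupffer marker levels given above were lower with dexamethasone in wild type, and their part in the result was not tested. Ctsa and Lipa each lost their call without any 1 of 9 arrays, Ctsa at -0.24 to -0.18 and Lipa at -0.33 to -0.26, and Lgmn without wild-type dexamethasone 3 (-0.41) or wild-type vehicle 1 (-0.39).

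Nutrient-sensing genes upstream of Ulk1 changed in both directions, 4 higher and 6 lower of 24 (41.7%, against 17.2% of all genes), or 4 and 2 without the 4 arrays. Ddit4, an inhibitor of the growth kinase mTOR, rose by 4.68 ± 0.22, at 7.69 to 8.93 with dexamethasone, against 3.28 to 4.33 with vehicle. The transcription factor Foxo1, which activates several autophagy genes, rose by 1.20 ± 0.09, and the stress sensor Sesn1 by 0.77 ± 0.09. Flcn, which controls the entry of Tfeb into the nucleus through mTOR at the lysosome, fell by 0.70 (-0.70 ± 0.10). Partners of Hdac6 and Vcp in aggregate handling gave 2 higher and 1 lower of 20 (15%, against 17.2% of all genes), or 2 and 0 without the 4 arrays. The small heat shock protein Hspb8 rose by 0.64 ± 0.11 (0.88 in the knockout and 0.40 in wild type, the second not past the threshold) and the Vcp cofactor Ubxn6 by 0.30 ± 0.08, while the cofactor Ubxn1 fell by 0.31 (-0.31 ± 0.08, lost without wild-type dexamethasone 2 at -0.27). Neither Ubxn gene passed without the 4 arrays, where Hspb8 and Bag3, its co-chaperone partner, did.

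Of 31 proteasome subunits 0 rose and 1 fell (3.23%, against 17.2% of all genes), Psmd11, a lid subunit (-0.32 ± 0.06, adjusted p = 1.61e-03). Of 9 other ubiquitin ligase genes linked to muscle atrophy 2 passed (22.2%, against the same 17.2%). Fbxo31 rose by 1.45 ± 0.12 and Fbxo21 fell by 1.35 (-1.35 ± 0.15), while Fbxo32, at the low level given above, did not pass. Within the genotypes, the further autophagosome genes gave 4 higher and 4 lower in the knockout and the same in wild type. The receptors gave 2 and 0 in the knockout, 3 and 1 in wild type; the lysosome genes 0 and 1, then 0 and 5; the nutrient-sensing genes 4 and 3, then 3 and 5. The aggregate-handling partners gave 1 and 0 in the knockout, 0 and 1 in wild type, the proteasome 0 and 1 in both, and the ligases 1 and 1, then 2 and 1. Of all genes 4.38% were higher and 3.92% lower in the knockout, and 4.57% and 6.95% in wild type. For Hdac6 loss under dexamethasone, under vehicle and averaged, and for the interaction, 0 of the 155 genes of these 7 lists passed in limma, with 15, 7, 11 and 12 at an unadjusted p under 0.05. The median averaged dexamethasone change was 0.05 for the further autophagosome genes, 0.03 for the receptors, -0.09 for the lysosome genes, -0.09 for the nutrient-sensing genes, 0.00 for the aggregate-handling partners, -0.03 for the proteasome and 0.07 for the ligases, beside 0.00 over all genes.

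**Figure D4:**
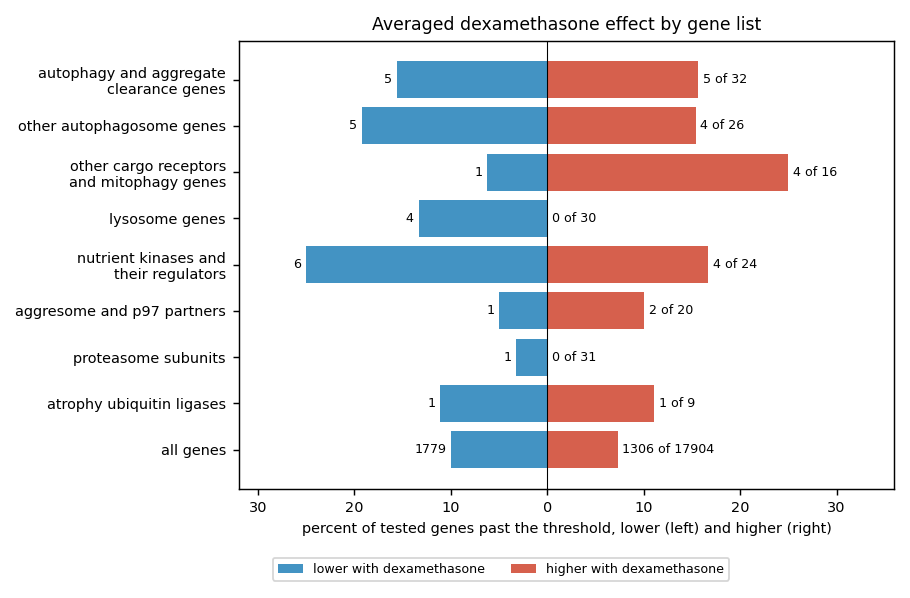
Percent of tested genes (x axis) past the threshold for the averaged dexamethasone effect, lower to the left in blue and higher to the right in red, for the autophagy and aggregate clearance genes, 7 further lists and all genes; the numbers of genes stand beside the bars. The lysosome and proteasome bars run to the left side alone, with 4 of 30 and 1 of 31 genes.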

How the data were processed

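The deposited values are log2 intensities, 1 column per array, and per the submitters' processing notes the authors used affy and R 2.10.0 to make them; background correction, normalisation, summarisation and genome build are not given in the sources used here. They were used as deposited. Of 34760 probe sets, 21640 carried 1 gene symbol, 1321 several and 11799 none in the platform annotation. A gene was kept if it exceeded its array's 20th percentile in at least 3 arrays. Group means were fitted with limma 3.58.1 in R 4.3.3 with empirical Bayes moderation (8 residual and 5.07 prior degrees of freedom; median residual SD 0.143). There were 7 comparisons, each adjusted by the Benjamini-Hochberg method over 17904 genes; ± on a change is SE. The number of arrays limits the precision. Promoter windows came from RefSeq tables; figures were drawn with matplotlib 3.10.9 in Python 3.11.15 (pandas 2.3.3). The fit was tested on simulated data.

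The members, the further lists and the alternatives were chosen with earlier results of these data known. Genes were named by a rule: members past the threshold in any comparison, with Sqstm1, Map1lc3b, Vcp and Fbxo32, get every value; from each further list up to 4 genes with the smallest p for the averaged dexamethasone effect and up to 2 for the averaged genotype effect are named. Alternatives were filters, quantile normalisation, median centring, the mean of a gene's probe sets, a replicate block, the pancreas marker level as a covariate, the fit without the 4 arrays with pancreas transcripts, and leaving out each array in turn.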

Additional observations from a re-analysis of the deposited data

How the results depend on the processing

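The counts of the 32 genes past the threshold were 6 in the knockout, 8 in wild type and 10 for the averaged dexamethasone effect, and 0 in the 4 other comparisons. Without the 4 arrays with pancreas transcripts the counts for the knockout, wild type and the average were lower, as were those over all genes. This fit has fewer samples. Leaving out single arrays gave 2 to 6, 6 to 8 and 7 to 10, and 0 throughout in the others. Filters, quantile normalisation, median centring, averaged probe sets and the pancreas covariate kept every count within 1.5 times. Of the 24 calls, 8 held without the 4 arrays and 18 with the covariate; 0 reversed in any alternative. Over all genes, leaving out the 4 arrays gave 558 against 2064 genes in wild type, 1695 against 3085 for the average, 5 against 18 for the knockout under vehicle, 1 against 5 under dexamethasone, 3 against 9 for the averaged genotype effect and 1 against 0 for the interaction. The covariate gave 7 against 18 and 2 against 5 for the knockout under vehicle and under dexamethasone, and no filter gave 3 against 5 under dexamethasone. Leaving out single arrays gave 5 to 28 genes for the knockout under vehicle, 1 to 37 under dexamethasone, 5 to 29 for the averaged genotype effect and 0 to 3 for the interaction. The cause was not tested. Same-numbered arrays of different groups did not deviate together (correlations of -0.54 to 0.36, with 1 of 12 arrays closest to its own number). The highest and lowest of these correlations involved arrays with pancreas transcripts, so they cannot show whether the numbers pair the animals. With the replicate block the counts were 5, 7 and 10 and 0 in the others; over all genes it gave 29 against 9 for the averaged genotype effect and 3 against 5 for the knockout under dexamethasone.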

Other observations

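Single markers of other cell types moved as follows with dexamethasone. Of 8 endothelial markers, 3 fell and 1 rose in the knockout, while 5 fell and 1 rose in wild type; of all genes 8.29% passed in the knockout and 11.5% in wild type. Stellate cell markers were lower for 1 of 8 in the knockout and 2 of 8 in wild type, with 0 higher in both, where 3.92% and 6.95% of all genes were lower. Skeletal muscle markers passed for 0 of 5 in either genotype, with mean log2 intensities of 3.10 to 3.48 in knockout livers and 3.12 to 4.34 in wild-type livers. The highest values, 4.34 and 4.03, were those of wild-type vehicle 1 and 2, which also held pancreas transcripts.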
